A study of Mus musculus with 8 samples.

Results

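The genes described here encode the nuclear subunits of the oxidative phosphorylation machinery, measured in whole skin of mice that lack Nampt in the epidermis and of control mice. Members were chosen by gene name alone, with pseudogenes left out. The names were Nduf followed by a, b, c, s or v and a digit, Sdha to Sdhd, Cyc1, Cox4 to Cox8 and all names beginning with Uqcr or Atp5. The rule found 85 of the 36333 genes in the table: 37 of complex I, 4 of complex II, 9 of complex III, 18 of complex IV and 17 of ATP synthase. RNA-seq of poly-A selected RNA was carried out on skin at Day 19 after tamoxifen, with 4 Nampt-cKO and 4 control libraries. Nampt-cKO mice carried floxed Nampt alleles (flox/flox) together with Krt5-CreERT2, and controls carried the floxed alleles without a Cre named in their labels. All were 8-week-old males on C57BL/6J. Tamoxifen was given at 100 μg/g once a day for 5 days, at 20 mg/mL in corn oil. The study's time line shows it for both groups, while the label protocol names cKO mice alone. Krt5 drives Cre in basal keratinocytes, whereas the RNA came from all cells of the skin. Dermal, immune, fat and muscle cells, which do not use this promoter, therefore contributed to every value. In such bulk samples a higher or lower level can come from more or fewer cells of a type. It can also come from more or less RNA per cell, and these cannot be told apart. The labels do not say that each replicate is a separate mouse, so the spread behind each p-value may be partly technical.

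Oxidative phosphorylation takes place in the inner mitochondrial membrane. Complex I accepts electrons from NADH and complex II from succinate, both hand them to coenzyme Q, complex III passes them on to cytochrome c, and complex IV reduces oxygen. Complexes I, III and IV pump protons, and ATP synthase lets the protons flow back to make ATP. NAD+ is the electron acceptor that feeds complex I, and Nampt catalyses the rate-limiting step of its salvage from nicotinamide. Most subunits are encoded in the nucleus and imported, while a core set of complexes I, III, IV and ATP synthase is encoded by the mitochondrial genome. In keratinocytes, glycolysis supplies much of the ATP, and mitochondrial respiration is known to take part in differentiation.

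Nampt itself was at 32.3, 37.5, 76.1 and 49.6 CPM in Nampt-cKO skin, against 77.7, 72.9, 71.01 and 60.4 CPM in control skin. CPM are exon reads scaled to library size with TMM factors, and values stand in the order of the replicate numbers. Log2FC is the log2 fold change of Nampt-cKO over control skin, given with its standard error (SE). The library labelled Nampt-cKO replicate 3 lay within the control range and so went against its label for this gene. The difference did not pass the test (log2FC −0.53, SE 0.24, edgeR adjusted p = 0.0974), and without that library it was −0.83 (edgeR adjusted p = 0.00284, with 0.00284 to 0.216 across the alternatives). The libraries held 39390895 to 52672388 exon reads in the Nampt-cKO group and 41206078 to 53762935 in the control group. Among all 17286 genes tested, 23.8% were higher and 22.0% were lower at an edgeR adjusted p below 0.05, the background for the counts of markers that follow. Keratinocyte markers defined the tissue: 7 basal markers summed to 21620.1 to 28684 CPM in Nampt-cKO skin and 19785 to 22202 CPM in control skin, with 3 of 7 higher and none lower. Suprabasal markers had 5 of 7 lower, with sums of 2765 to 8971 CPM in Nampt-cKO skin and 17021 to 18482 CPM in control skin. Of the other lists, 7 of 8 neutrophil genes were higher and 1 was lower, and 7 of 7 cell cycle genes were higher. Neutrophil genes summed to 35.4 to 757 CPM in Nampt-cKO skin and 16.3 to 23.1 CPM in control skin, and cell cycle genes to 425 to 697 CPM in Nampt-cKO skin and 159.5 to 229.8 CPM in control skin, without overlap of the groups. In the sums of suprabasal, neutrophil and cell cycle markers, Nampt-cKO replicate 3 thus lay with its group, unlike for Nampt itself. Among macrophage genes 4 of 8 were higher and 1 was lower, among dermal fibroblast genes 1 of 7 was higher and 3 were lower, and 3 of 8 adipocyte genes were lower. None of 12 skeletal muscle genes and none of 5 red blood cell genes passed the test in either direction, and of the 3 tested hair shaft genes 1 was lower. The lists are short and some of their counts lie near the background. The part of cell content in the results below was not tested.

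Nuclear-encoded subunits were mostly higher in Nampt-cKO skin, and all that rose did so by less than 1 on the log2 scale, except Ndufc2 and Atp5g3. Of the 83 members with enough reads to test, 54 rose and 4 fell in Nampt-cKO skin (edgeR quasi-likelihood test, Benjamini-Hochberg adjusted p below 0.05). The other 25 missed that threshold. Among all 17286 genes tested, 23.8% were higher and 22.0% were lower, against 65.1% higher among the tested members. These shares were not matched for read count. With a stricter filter (at least 1 CPM in at least 4 libraries), 4145 of 14631 genes and 55 of 83 members were higher. The median log2FC of the tested members was 0.32, beside −0.01 for all genes. Single members ran from −1.39 (Atp5s) to 1.02 (Ndufc2). Cox7b2 and Cox8c, the remaining members and known for their expression in testis, had no read in any library. All 4 Nampt-cKO libraries lay above all 4 controls for 57 members and below them for 3, while 23.0% and 22.4% of all tested genes separated in these directions. The median ratio of the tested members to their control mean, on the log2 scale, was 0.29, 0.42, 0.31 and 0.27 in the Nampt-cKO libraries, against 0.03, −0.03, 0.03 and −0.04 in the controls. The 4 Nampt-cKO libraries thus all lay above the 4 controls on this measure. Without the library labelled Nampt-cKO replicate 3, 53 members were higher and 5 were lower. With log2(RPKM + 1) in limma, 43 were higher and 5 lower. RPKM here divides by a total that includes mitochondrial reads. That total was 1.19 to 1.25 times the exon reads in the Nampt-cKO libraries, against 1.16 to 1.17 times in the controls.

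**Figure D1:**
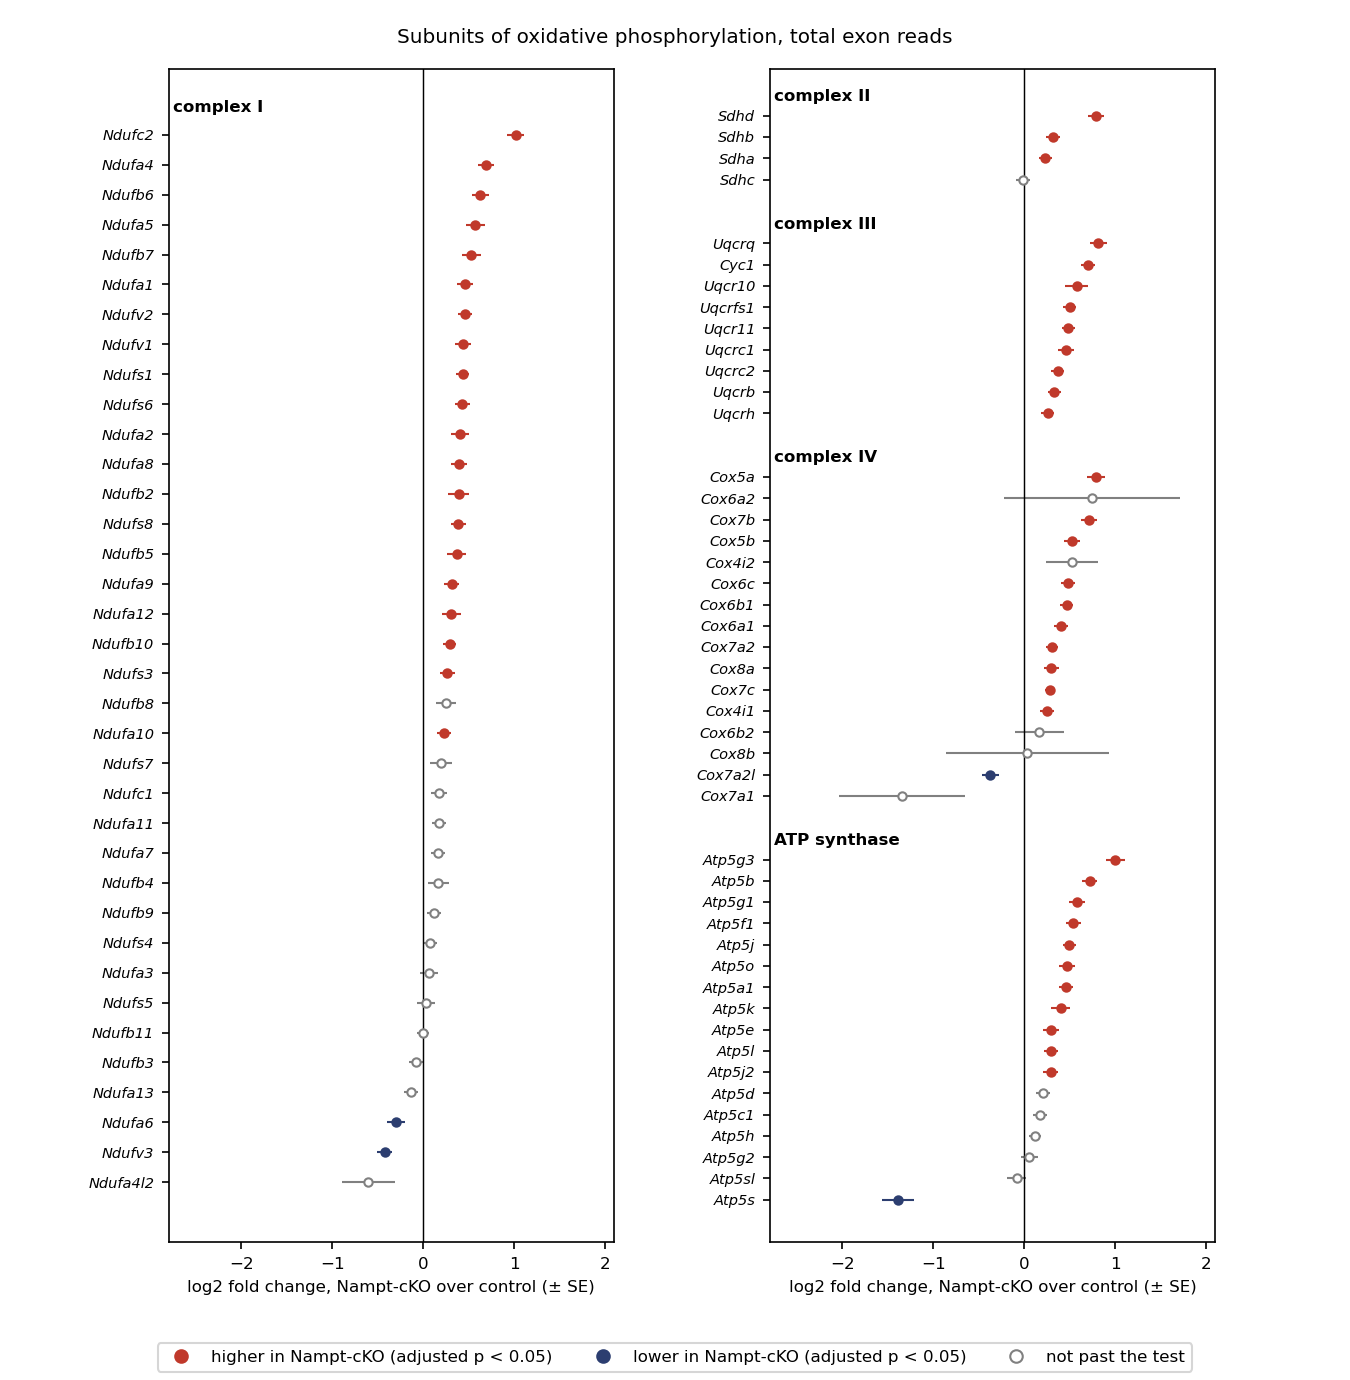
Log2 fold change of tested subunits in Nampt-cKO over control skin (points; bars, standard error; 4 libraries each), by complex. Filled points passed the test: most lie right of 0 and 4, Ndufa6, Ndufv3, Cox7a2l and Atp5s, lie left of it, while the muscle-type isoforms Cox6a2, Cox7a1 and Cox8b have the widest bars.

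Promoter sequence was available from RefSeq (GRCm38.p6) for 69 members, matched by symbol or by a former name, and the 250 bases before the start of transcription were searched on both strands for letters bound by factors known at respiratory genes, against 27025 genes. The NRF1 letters CGCATGCG were found in 7 of 69 members (10.1%) and 1.75% of all genes, and the ETS letters CCGGAAG, bound by Gabpa, in 12 of 69 members (17.4%) and 7.83% of all genes. The ERR letters TCAAGGTCA were found in 1 of 69 members (1.45%) and 0.422% of all genes, and the YY1 letters AAGATGGCG in 2 of 69 members (2.90%) and 0.710% of all genes. CCAAT was found in 31 of 69 members (44.9%) and 37.5% of all genes, and the SP1 letters GGGCGG in 25 of 69 members (36.2%) and 35.4% of all genes. None of these strings contains another, and a promoter could hold several of them. Of the 69 members, 44 were higher in exon reads, among them 5 of the 7 with the NRF1 letters and 11 of the 12 with the ETS letters. For the other strings these were 18 of the 31 with CCAAT, 16 of the 25 with the SP1 letters, 1 of the 2 with the YY1 letters and the 1 with the ERR letters. Whether members with a match rose more often was not tested. Shown here are the 250 bases before the start of Ndufc2 and Atp5g3, which had the largest rises of all members, of Ndufb6, the highest-ranked riser whose window is free of annotated exons and holds the ETS letters, and of Cox7a2l, a member that fell, with matches to the NRF1, ETS or ERR letters in capitals.
Ndufc2 (GRCm38.p6, chr7:97399753-97400002, plus strand): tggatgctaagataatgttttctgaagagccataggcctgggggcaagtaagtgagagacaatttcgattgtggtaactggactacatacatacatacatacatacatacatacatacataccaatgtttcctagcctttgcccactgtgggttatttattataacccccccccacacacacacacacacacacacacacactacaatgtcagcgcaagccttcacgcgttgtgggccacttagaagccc
Atp5g3 (GRCm38.p6, chr2:73911327-73911576, minus strand): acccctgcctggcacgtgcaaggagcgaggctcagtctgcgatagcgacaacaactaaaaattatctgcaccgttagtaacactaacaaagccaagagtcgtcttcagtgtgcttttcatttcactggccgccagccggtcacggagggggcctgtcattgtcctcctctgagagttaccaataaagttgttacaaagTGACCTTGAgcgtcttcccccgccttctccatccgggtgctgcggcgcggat
Ndufb6 (GRCm38.p6, chr4:40279422-40279671, minus strand): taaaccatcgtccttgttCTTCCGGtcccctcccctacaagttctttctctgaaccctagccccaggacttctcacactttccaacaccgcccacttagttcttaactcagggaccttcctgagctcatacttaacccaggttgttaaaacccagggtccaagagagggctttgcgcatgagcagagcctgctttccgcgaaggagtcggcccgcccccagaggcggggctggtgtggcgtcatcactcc
Cox7a2l (GRCm38.p6, chr17:83514334-83514583, minus strand): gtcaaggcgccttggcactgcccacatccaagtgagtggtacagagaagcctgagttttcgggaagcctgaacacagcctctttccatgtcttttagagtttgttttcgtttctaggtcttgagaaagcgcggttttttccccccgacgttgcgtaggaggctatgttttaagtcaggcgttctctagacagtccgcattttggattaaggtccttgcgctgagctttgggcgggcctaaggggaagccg
Atp5g3 holds the ERR letters on the reverse strand and Ndufb6 the ETS letters on the reverse strand, while the windows of Ndufc2 and Cox7a2l hold none of the 3 motifs. A match describes the letters in this window and is neither a bound site nor a cause.

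Summed over its members in CPM, each complex was higher in every Nampt-cKO library than in any control. Complex I averaged 2138 ± 139 in Nampt-cKO skin and 1788 ± 35.8 in control skin (summed CPM, SD, n = 4 each). Complex II averaged 439.7 ± 9.84 in Nampt-cKO skin and 359.5 ± 13.7 in control skin. Complex III averaged 1062 ± 75.3 in Nampt-cKO skin and 758 ± 23.4 in control skin. It had the highest ratio of Nampt-cKO to control means, 1.40, next to 1.38 for ATP synthase, 1.23 for complex IV, 1.22 for complex II and 1.20 for complex I. Complex IV averaged 1635 ± 80.9 in Nampt-cKO skin and 1329.7 ± 36.6 in control skin, and ATP synthase averaged 3597 ± 284 in Nampt-cKO skin and 2601 ± 61.3 in control skin. In summed RPKM the groups overlapped for complex I, where Nampt-cKO replicate 4 was at 1829, against 1856 in control 3 (ratio of means 1.14), and did not overlap for the other complexes. The sums are weighted toward abundant members, and differences between complexes were not tested. Together the 85 genes took 0.817 to 0.930% in the Nampt-cKO libraries, against 0.671 to 0.707% in the controls, as a share of exon reads.

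**Figure D2:**
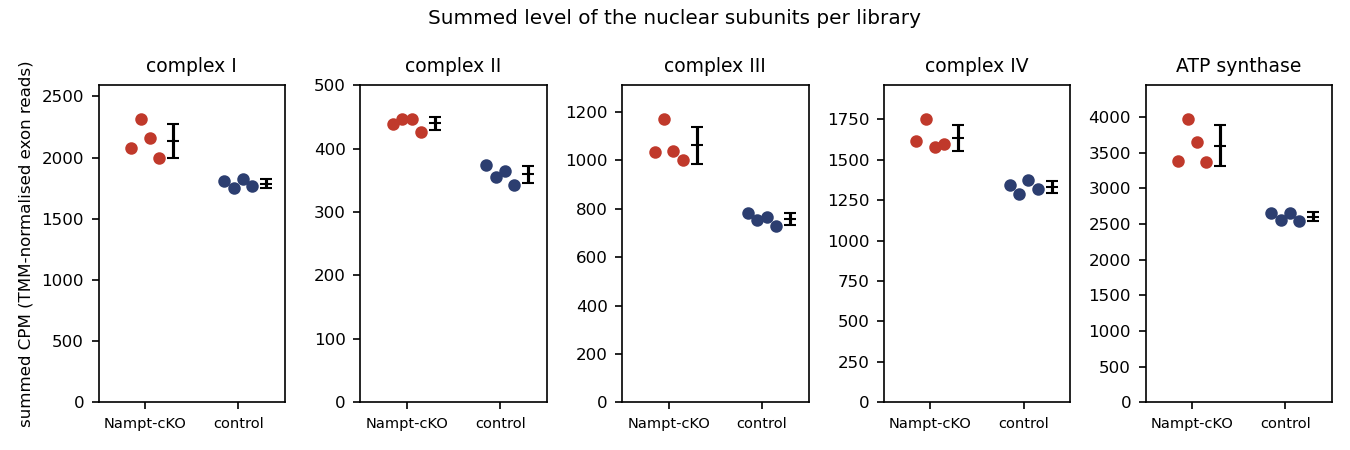
Summed TMM-normalised CPM of the nuclear subunits of each complex, with 1 point per library (left, Nampt-cKO; right, control) and mean ± SD beside the points. In all 5 panels the 4 Nampt-cKO libraries lie above the 4 controls, with no overlap.

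In complex I, 21 of 37 members were higher and 2 were lower. Its nuclear core subunits form the path of electrons through the flavin and the iron-sulfur clusters. Ndufv1, which binds NADH and the flavin, had 95.2, 119, 99.7 and 99.7 CPM in Nampt-cKO skin, against 82.04, 72.7, 75.4 and 74.6 CPM in control skin (log2FC 0.44, SE 0.09, edgeR adjusted p = 0.00265). Ndufs1, the large iron-sulfur subunit beside it, had 85.4, 86.4, 93.8 and 86.3 CPM in Nampt-cKO skin, against 68.03, 66.4, 61.1 and 64.9 CPM in control skin (log2FC 0.43, SE 0.07, edgeR adjusted p = 8.25e-04). For both genes the groups did not overlap. Ndufv2, an iron-sulfur subunit of the same arm, averaged 86.2 ± 5.16 CPM in Nampt-cKO skin and 62.8 ± 3.73 CPM in control skin (SD, n = 4 each; log2FC 0.46, edgeR adjusted p = 0.00110). Ndufs3 and Ndufs8 were also higher, and Ndufs7, which carries the last cluster before coenzyme Q, was at 55.8, 65.4, 47.0 and 45.3 CPM in Nampt-cKO skin, against 45.99, 46.5, 50.1 and 44.3 CPM in control skin and did not pass the test (edgeR adjusted p = 0.221).

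Accessory subunits surround this core, and here the responses diverged: 14 of 28 rose, 2 fell and 12 missed the threshold. Ndufc2, a subunit of the membrane arm (chromosome 7, 97400003 to 97407800, GRCm38), had the largest rise of all members, with 58.96, 62.8, 51.6 and 57.6 CPM in Nampt-cKO skin, against 30.2, 28.7, 29.6 and 25.5 CPM in control skin (log2FC 1.02, SE 0.09, edgeR adjusted p = 4.95e-05). The lowest Nampt-cKO library stood above the highest control. Ndufb6, also of the membrane arm, had 40.1, 45.1, 39.8 and 35.5 CPM in Nampt-cKO skin, against 26.4, 27.1, 25.1 and 25.2 CPM in control skin (log2FC 0.63, SE 0.09, edgeR adjusted p = 6.12e-04). Ndufa5, of the peripheral arm, had 38.8, 42.5, 42.8 and 34.4 CPM in Nampt-cKO skin, against 24.9, 25.5, 29.8 and 26.2 CPM in control skin (log2FC 0.58, SE 0.10, edgeR adjusted p = 0.00166). Other accessory subunits fell. Ndufv3, which sits on the NADH-binding module (chromosome 17, 31520115 to 31531326), had 40.1, 43.8, 38.5 and 39.8 CPM in Nampt-cKO skin, against 59.2, 52.03, 55.1 and 51.6 CPM in control skin (log2FC −0.43, SE 0.08, edgeR adjusted p = 0.00222), and the groups did not overlap. Ndufa6, of the matrix arm, had 40.4, 49.8, 39.04 and 37.9 CPM in Nampt-cKO skin, against 53.6, 49.8, 51.9 and 51.1 CPM in control skin (log2FC −0.30, SE 0.10, edgeR adjusted p = 0.0307), but Nampt-cKO replicate 2 lay level with the lowest control. This call was lost on leaving out Nampt-cKO replicate 3 or 4 or any 1 of the controls (edgeR adjusted p = 0.0571 to 0.0805, with 0.00338 to 0.0805 across the alternatives). Ndufa12, a further subunit of the matrix arm, rose by an amount close to the threshold. It had a log2FC of 0.31 (edgeR adjusted p = 0.0363), and of 0.24 with uniquely mapped reads (edgeR adjusted p = 0.104). Its call was also lost without Nampt-cKO replicate 2 or 3 or control 2, 3 or 4 (edgeR adjusted p = 0.0814 to 0.102, with 0.0166 to 0.104 across the alternatives). Accessory subunits stabilise the complex and do not carry electrons. Ndufb11, Ndufb3, Ndufa3, Ndufs4 and Ndufa13 were among those that did not pass the test, with log2FC from −0.14 to 0.08. Only 28.5% of the exon reads of Ndufb4 and 72.2% of those of Ndufs5 mapped to 1 place, so the values of these genes, neither of which passed the test, are uncertain.

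Ndufa4, named for complex I but now known as a subunit of complex IV, had 77.3, 92.1, 99.97 and 87.95 CPM in Nampt-cKO skin, against 55.2, 57.7, 56.2 and 52.6 CPM in control skin (log2FC 0.69, SE 0.09, edgeR adjusted p = 2.73e-04). Its paralog Ndufa4l2, which is induced by hypoxia in other tissues, had 27.2, 55.05, 59.8 and 29.3 CPM in Nampt-cKO skin, against 51.6, 48.5, 72.6 and 87.4 CPM in control skin and did not pass the test (log2FC −0.60, SE 0.29, edgeR adjusted p = 0.121). The groups overlapped for Ndufa4l2 and not for Ndufa4. The share of Ndufa4l2 in the summed RPKM of both genes was 17.7% ± 4.63 in Nampt-cKO skin, against 34.8% ± 7.08 in control skin (SD, n = 4 each), and every Nampt-cKO library was below every control. Without the library labelled Nampt-cKO replicate 3, Ndufa4l2 passed the test at −0.82 (edgeR adjusted p = 0.0483, with 0.0483 to 0.293 across the alternatives).

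Complex II is made of nuclear-encoded subunits alone, and it showed unequal changes of its membrane anchors. Sdhd, an anchor that holds the heme and part of the coenzyme Q site (chromosome 9, 50596340 to 50603849), had 87.0, 109, 99.6 and 94.4 CPM in Nampt-cKO skin, against 58.7, 53.1, 58.8 and 55.3 CPM in control skin (log2FC 0.79, SE 0.09, edgeR adjusted p = 1.17e-04). Sdhc, its partner in the membrane, had 113, 95.3, 94.9 and 93.6 CPM in Nampt-cKO skin, against 101, 99.3, 102 and 97.3 CPM in control skin (log2FC −0.01, SE 0.08, edgeR adjusted p = 0.916). The groups overlapped for Sdhc and were apart for Sdhd. Sdhb, the iron-sulfur subunit, had 79.0, 71.6, 72.04 and 71.4 CPM in Nampt-cKO skin, against 63.1, 56.02, 62.4 and 54.7 CPM in control skin (log2FC 0.32, SE 0.08, edgeR adjusted p = 0.00897). Sdha, the flavoprotein that oxidises succinate, had 161, 170.1, 181 and 167 CPM in Nampt-cKO skin, against 152, 147, 142 and 136 CPM in control skin (log2FC 0.23, SE 0.07, edgeR adjusted p = 0.0214). Both catalytic subunits thus rose by less than Sdhd in their estimates, and the differences between genes were not tested. The call for Sdha was lost without Nampt-cKO replicate 3 (edgeR adjusted p = 0.0513) and without control 2, 3 or 4 (edgeR adjusted p = 0.0521, 0.0622 and 0.0694, with 0.00885 to 0.0887 across the alternatives). By RPKM, Sdhc was the most abundant of the 4 in both groups, at 68.7 in Nampt-cKO skin and 73.3 in control skin, and Sdhd, at 61.9 in Nampt-cKO skin and 38.02 in control skin, was at the other end in control skin.

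In complex III, all 9 nuclear members were higher, each with groups that did not overlap. Cyc1, cytochrome c1, had 131, 155, 134 and 132 CPM in Nampt-cKO skin, against 89.5, 81.2, 85.6 and 82.7 CPM in control skin (log2FC 0.70, SE 0.08, edgeR adjusted p = 1.24e-04). Uqcrfs1, the Rieske iron-sulfur protein, had 119.8, 134, 127 and 114 CPM in Nampt-cKO skin, against 92.9, 87.8, 86.6 and 82.7 CPM in control skin (log2FC 0.50, SE 0.07, edgeR adjusted p = 5.77e-04). Both catalytic subunits encoded in the nucleus were therefore higher in every Nampt-cKO library. The core proteins Uqcrc1 and Uqcrc2, which descend from processing peptidases, changed by 0.46 and 0.37 on the log2 scale (edgeR adjusted p = 0.00175 and 0.00193). Uqcrq, a small subunit that contacts cytochrome b (chromosome 11, 53427922 to 53430831), had the largest change, with 98.9, 121, 110.0 and 93.2 CPM in Nampt-cKO skin, against 59.6, 60.2, 63.3 and 57.3 CPM in control skin (log2FC 0.82, SE 0.09, edgeR adjusted p = 1.44e-04). Uqcr10 and Uqcr11 averaged 64.6 and 82.4 CPM in Nampt-cKO skin, against 43.4 and 58.8 CPM in control skin (log2FC 0.58 and 0.49). Uqcrh, the acidic hinge protein near cytochrome c1 and the most abundant member by RPKM, had the smallest change (log2FC 0.26, SE 0.07, edgeR adjusted p = 0.0146), and its call was lost without control 2 (edgeR adjusted p = 0.0537, with 0.00478 to 0.0773 across the alternatives).

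Complex IV has general subunits made in most tissues and isoforms made in a few. All 10 general members were higher in total exon reads, with no overlap between groups, and 1 of these calls rests on reads shared with near copies. Cox5a, which sits beside the catalytic core on the matrix side (chromosome 9, 57521232 to 57532427), had 79.5, 105, 99.5 and 86.3 CPM in Nampt-cKO skin, against 55.1, 53.2, 55.9 and 49.6 CPM in control skin (log2FC 0.79, SE 0.10, edgeR adjusted p = 2.41e-04). Cox7b had 79.5, 99.6, 98.9 and 88.7 CPM in Nampt-cKO skin, against 55.8, 52.7, 54.6 and 60.4 CPM in control skin (log2FC 0.71, SE 0.09, edgeR adjusted p = 2.63e-04). Cox5b, the zinc-binding subunit, had 109.8, 132, 109 and 102 CPM in Nampt-cKO skin, against 80.2, 74.3, 81.7 and 78.4 CPM in control skin (log2FC 0.53, SE 0.09, edgeR adjusted p = 0.00115). These were the 3 largest rises among members counted under complex IV that passed the test. Ndufa4, counted by its name under complex I, had a larger rise than Cox5b (log2FC 0.69). Cox4i1, the most abundant member by RPKM and known to act early in assembly, had 296, 321, 269 and 282 CPM in Nampt-cKO skin, against 251, 238, 251 and 238 CPM in control skin (log2FC 0.25, SE 0.08, edgeR adjusted p = 0.0212). Its call was lost without control 1, 2 or 4 (edgeR adjusted p = 0.0501, 0.0716 and 0.0619, with 0.00584 to 0.119 across the alternatives). Cox8a (log2FC 0.30, edgeR adjusted p = 0.0158) lost its call without control 1 or 2 (edgeR adjusted p = 0.0511 and 0.0545, with 0.00442 to 0.0928 across the alternatives). The remaining general subunits are small proteins around the catalytic core. Cox6c, Cox6b1, Cox6a1 and Cox7a2 were higher by 0.48, 0.47, 0.40 and 0.30 on the log2 scale. Cox7c was higher by 0.28 in total exon reads, but only 13.4% of its reads mapped to 1 place. With those reads alone it was at −0.03 (edgeR adjusted p = 0.863, with 8.04e-06 to 0.863 across the alternatives), so its value is uncertain. Cox7a2l, described elsewhere as a factor of supercomplexes (chromosome 17, 83501917 to 83514333), went the other way, with 188, 187, 148 and 166 CPM in Nampt-cKO skin, against 216, 214, 237 and 225 CPM in control skin (log2FC −0.37, SE 0.09, edgeR adjusted p = 0.00837). Supercomplexes were not measured here, and the role of this gene in mice of this strain was not tested.

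None of the 5 tested tissue isoforms of complex IV passed the test. Cox6a2, the heart and skeletal muscle form of Cox6a1, had 1.04, 12.1, 30.8 and 3.07 CPM in Nampt-cKO skin, against 9.76, 6.01, 11.5 and 0.774 CPM in control skin (log2FC 0.75, SE 0.97, edgeR adjusted p = 0.563). Cox8b, the muscle form of Cox8a, had 0.445, 1.57, 9.08 and 0.495 CPM in Nampt-cKO skin, against 3.89, 2.68, 3.79 and 1.02 CPM in control skin (log2FC 0.03, SE 0.90, edgeR adjusted p = 0.982). Cox7a1, the muscle and brown fat form of Cox7a2, had 0.445, 0.556, 1.32 and 0.469 CPM in Nampt-cKO skin, against 1.90, 2.18, 2.82 and 0.204 CPM in control skin (log2FC −1.34, SE 0.69, edgeR adjusted p = 0.143). The groups overlapped for all 3 genes. Beside them, the mean log2 CPM of 12 skeletal muscle markers was 3.18, 6.60, 8.05 and 4.71 in the Nampt-cKO libraries, against 7.16, 6.04, 7.13 and 3.55 in the controls. All 12 markers were detected, and their part in these values was not tested beyond a fit with their mean as a covariate. Skin samples can hold the thin muscle layer beneath the dermis, and its share in each sample was not recorded in the labels. The RPKM share of Cox6a2 in its pair was 4.69% ± 5.53 in Nampt-cKO skin, against 3.66% ± 2.38 in control skin (SD, n = 4 each), that of Cox8b was 2.38% ± 3.52 in Nampt-cKO skin, against 2.66% ± 1.21 in control skin, and that of Cox7a1 was 1.96% ± 1.25 in Nampt-cKO skin, against 5.78% ± 3.63 in control skin. With the muscle marker mean as a covariate, Cox6a2 passed the test at 0.62 (edgeR adjusted p = 0.0103, with 0.0103 to 0.894 across the alternatives), while the count over all members was 55 higher and 4 lower. Single libraries moved these values. Without the library labelled Nampt-cKO replicate 3, Cox8b was at −1.77 (edgeR adjusted p = 0.0434, with 0.0434 to 0.999 across the alternatives) and Cox6a2 at −0.38 (edgeR adjusted p = 0.765). Without control 4, Cox7a1 was at −1.72 (edgeR adjusted p = 0.0198, with 0.0198 to 0.469 across the alternatives). Cox4i2, the lung form that responds to oxygen, averaged 3.98 ± 0.726 CPM in Nampt-cKO skin and 2.76 ± 0.914 CPM in control skin, and Cox6b2, known from testis, averaged 3.05 ± 0.882 CPM in Nampt-cKO skin and 2.71 ± 0.431 CPM in control skin (SD, n = 4 each).

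**Figure D3:**
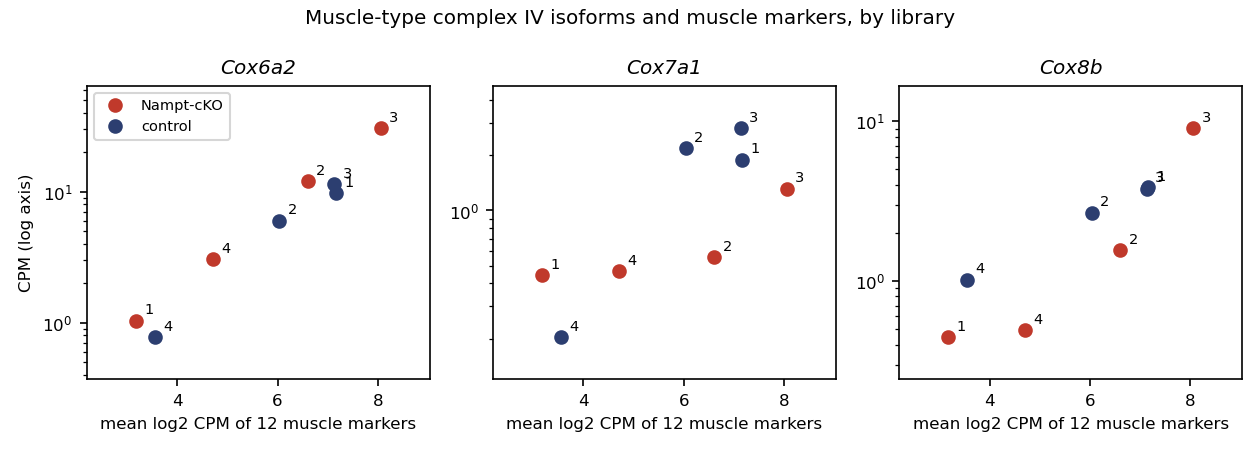
CPM of the muscle-type isoforms Cox6a2, Cox7a1 and Cox8b (log axes) against the mean log2 CPM of 12 skeletal muscle markers, with 1 point per library, numbered by replicate. The library labelled Nampt-cKO replicate 3 has the highest marker mean (8.05) and the highest Cox6a2 and Cox8b, and groups overlap in every panel.

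In ATP synthase, 11 of 17 members were higher and 1 was lower. Atp5b, the catalytic beta subunit and the most abundant member by RPKM (chromosome 10, 128083307 to 128090388), had 893, 1093, 1062 and 936 CPM in Nampt-cKO skin, against 625, 579, 611 and 603 CPM in control skin (log2FC 0.72, SE 0.09, edgeR adjusted p = 1.84e-04). Atp5a1, the alpha subunit that alternates with it in the head, had 704, 834, 775 and 704 CPM in Nampt-cKO skin, against 566, 545, 544 and 541 CPM in control skin (log2FC 0.46, SE 0.08, edgeR adjusted p = 0.00126). Neither gene had overlapping groups. The small central stalk subunit Atp5e was higher (0.30 on the log2 scale), while Atp5c1, the rotating gamma subunit, and Atp5d, the delta subunit, were at 0.17 and 0.21 and did not pass the test (edgeR adjusted p = 0.108 and 0.0609). In the peripheral stalk, Atp5f1, Atp5j and Atp5o were higher by 0.54, 0.50 and 0.47, and Atp5h was at 0.12 (edgeR adjusted p = 0.153). All 3 membrane subunits, Atp5k, Atp5l and Atp5j2, were higher, by 0.29 to 0.40. Atp5s, coupling factor B, carries the name of the enzyme without being a structural part of it (chromosome 12, 69724927 to 69744665). It had 5.98, 3.998, 3.97 and 4.06 CPM in Nampt-cKO skin, against 11.6, 12.2, 11.5 and 11.98 CPM in control skin (log2FC −1.39, SE 0.18, edgeR adjusted p = 2.52e-04), the largest fall of all members. Atp5sl, its relative, was at −0.08 (edgeR adjusted p = 0.563).

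The c ring, the rotor through which protons pass, is built from 1 mature protein made from 3 genes, which differ in their targeting sequences, and the genes did not change alike. Atp5g3 (chromosome 2, 73908447 to 73911326) had 187, 256, 204 and 189 CPM in Nampt-cKO skin, against 107, 102, 108 and 99.6 CPM in control skin (log2FC 1.003, SE 0.11, edgeR adjusted p = 1.07e-04). Atp5g1 had 88.7, 113, 99.2 and 97.3 CPM in Nampt-cKO skin, against 70.6, 67.3, 62.1 and 65.7 CPM in control skin (log2FC 0.58, SE 0.09, edgeR adjusted p = 5.96e-04). Atp5g2 had 203, 204, 168 and 162 CPM in Nampt-cKO skin, against 179, 168, 183 and 179 CPM in control skin (log2FC 0.06, SE 0.09, edgeR adjusted p = 0.646). The groups were apart for Atp5g3 and Atp5g1 and overlapped for Atp5g2. The RPKM of the 3 genes together was 562 ± 68.6 in Nampt-cKO skin and 428 ± 12.4 in control skin (SD, n = 4 each). Of this sum, Atp5g3 made up 41.8% ± 2.56 in Nampt-cKO skin, against 29.1% ± 0.727 in control skin. Atp5g2 made up 41.5% ± 3.41 in Nampt-cKO skin, against 55.4% ± 1.14 in control skin, and Atp5g1 made up 16.7% ± 1.27 in Nampt-cKO skin, against 15.5% ± 0.899 in control skin. Each Nampt-cKO library had a higher share of Atp5g3 and a lower share of Atp5g2 than each control, with no test of the shares.

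**Figure D4:**
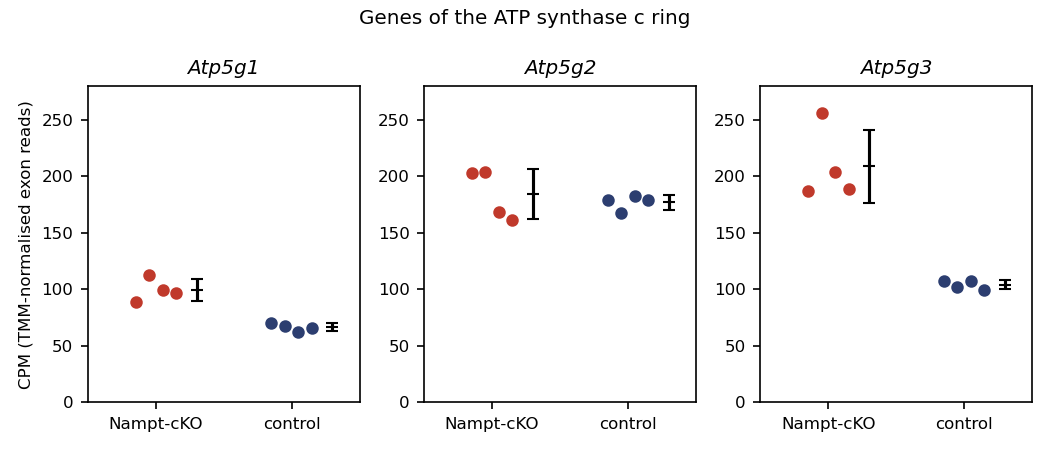
CPM of Atp5g1, Atp5g2 and Atp5g3 in each library (left, Nampt-cKO; right, control), with mean ± SD beside the points. For Atp5g3 the Nampt-cKO libraries lie between 187 and 256 CPM, above all controls, whereas for Atp5g2 the groups overlap.

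The 13 mRNAs of the mitochondrial genome encode the membrane core of complexes I, III, IV and ATP synthase, and all of them were higher in Nampt-cKO skin. The table gives these genes an exon length of 0, so their exon reads and RPKM are 0 in every library and their reads stand only under gene and intron reads. They were tested on total gene reads instead, a choice made after seeing the data. In that fit 23.1% of 19062 tested genes were higher and 22.1% were lower. The changes of the 13 ran from 1.15 to 1.60 on the log2 scale (median 1.26; edgeR adjusted p = 4.92e-05 to 1.81e-04). For each of them all 4 Nampt-cKO libraries lay above all 4 controls, as they did for 22.4% of the genes tested. In the same fit the nuclear members had a median of 0.33, and the difference between both sets was not tested. A gene of each complex is given in full. ND1, a complex I subunit at the coenzyme Q site, had 5166, 5868, 7213 and 8191 CPM in Nampt-cKO skin, against 2401, 2159, 2169 and 1987 CPM in control skin (log2FC 1.60, SE 0.14, edgeR adjusted p = 4.92e-05). COX1, the catalytic subunit of complex IV, had 16192, 16012, 19364 and 24066 CPM in Nampt-cKO skin, against 8245, 8114, 7322 and 7790.5 CPM in control skin (log2FC 1.27, SE 0.13, edgeR adjusted p = 1.03e-04). CYTB, the cytochrome b of complex III, had 4874, 4549, 5427 and 7020.1 CPM in Nampt-cKO skin, against 2279, 2225, 2052 and 2249 CPM in control skin (log2FC 1.31, SE 0.13, edgeR adjusted p = 8.24e-05). Nampt-cKO replicate 4 was the highest library for each of these genes. ATP6, the proton channel subunit of ATP synthase, had 6139, 6713, 7898 and 9349 CPM in Nampt-cKO skin, against 2998, 2950.2, 2766 and 2826 CPM in control skin (log2FC 1.38, SE 0.13, edgeR adjusted p = 5.54e-05). ND4 had the smallest change (1.15), and ND2, ND3, ND4L, ND5, ND6, COX2, COX3 and ATP8 lay between 1.20 and 1.46.

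The reads of the 13 genes made up 5.54 to 7.99% in the Nampt-cKO libraries, against 2.66 to 2.93% in the controls, as a share of all gene reads. The ribosomal RNAs of the same genome, mt-Rnr1 and mt-Rnr2, which have exon lengths in the table, were higher too, at 631 ± 101 CPM in Nampt-cKO skin and 213 ± 24.7 CPM in control skin for mt-Rnr1 and 1024 ± 233 CPM in Nampt-cKO skin and 379.8 ± 22.8 CPM in control skin for mt-Rnr2 (SD, n = 4 each; log2FC 1.57 and 1.43). The libraries were poly-A selected, so the values of mt-Rnr1 and mt-Rnr2 do not measure all ribosomal RNA. ATP8 overlaps ATP6, ND4L overlaps ND4, and ND6 lies on the other strand from its neighbours. Whether counting used strand is not given in the sources used here, so reads of such neighbours may not be told apart. All 13 genes are transcribed as long precursors that are later cut, and nuclear copies of mitochondrial DNA can share reads with them. Genes with no exon length bear on how intron reads are counted in the table. As a share of gene reads, intron reads were 12.7 to 16.5% in the Nampt-cKO libraries, against 10.8 to 11.8% in the controls. Once genes with no exon length were left out, they were 7.54 to 9.24% in the Nampt-cKO libraries, against 8.35 to 9.21% in the controls.

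**Figure D5:**
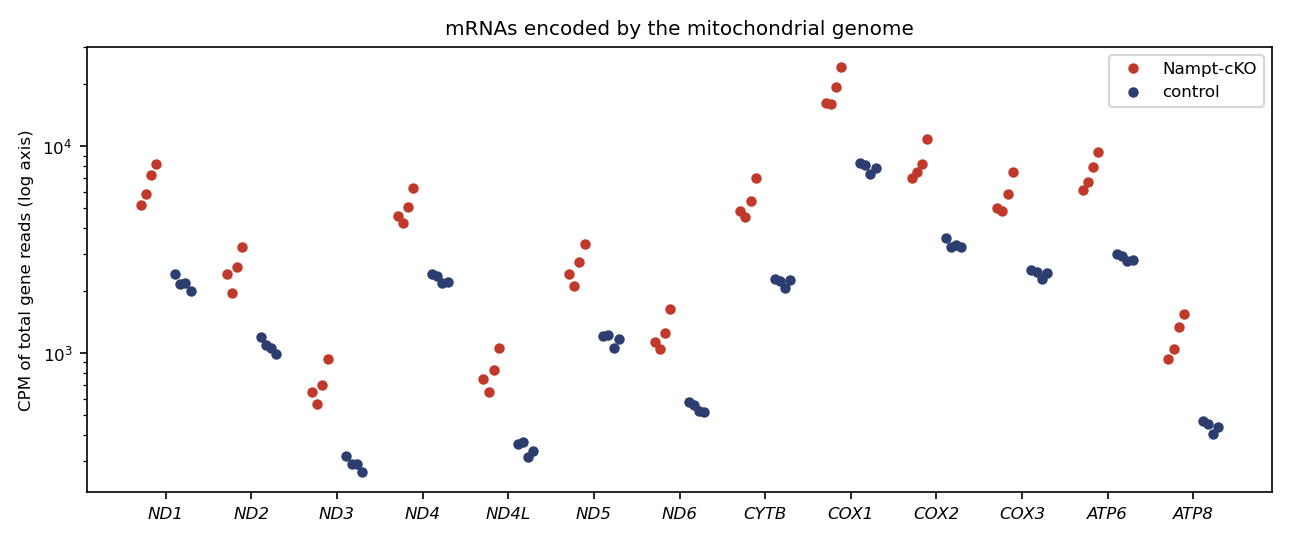
CPM of total gene reads (log axis) for the 13 mRNAs of the mitochondrial genome, with 1 point per library (left of each name, Nampt-cKO; right, control). Nampt-cKO libraries lie above controls for all 13 genes.

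Other genes of the pathway were read from lists by function, against the same background of 23.8% higher and 22.0% lower. The list of electron and nucleotide carriers also held the ATP synthase inhibitor Atpif1 and the uncoupling proteins Ucp1, Ucp2 and Ucp3. Of its 8 genes, 7 were tested and 3 were higher. Cycs, cytochrome c, had 139, 146, 145 and 151 CPM in Nampt-cKO skin, against 63.7, 65.1, 62.6 and 60.05 CPM in control skin (log2FC 1.21, SE 0.06, edgeR adjusted p = 3.72e-06). Slc25a5, the adenine nucleotide translocase of dividing cells, averaged 533 ± 82.9 CPM in Nampt-cKO skin and 286 ± 10.6 CPM in control skin, and Slc25a3, the phosphate carrier, averaged 482 ± 37.2 CPM in Nampt-cKO skin and 294 ± 8.69 CPM in control skin (SD, n = 4 each; log2FC 0.90 and 0.71). These carriers link the complexes to each other and to the cytosol. Of 12 regulators of mitochondrial biogenesis and mitochondrial transcription, 8 were higher and none was lower. Pprc1, a coactivator of the PGC-1 family, had 74.8, 111, 114 and 121 CPM in Nampt-cKO skin, against 32.9, 37.8, 29.5 and 34.8 CPM in control skin (log2FC 1.64, SE 0.15, edgeR adjusted p = 5.30e-05). Tfb2m, a factor of mitochondrial transcription, Yy1 and Nrf1, transcription factors known to act on respiratory genes, were higher by 0.64, 0.49 and 0.44 (edgeR adjusted p = 3.23e-04, 4.07e-04 and 0.00121). The other 4 regulators, Ppargc1a (log2FC −0.60, SE 0.44, edgeR adjusted p = 0.303), Gabpb1, Esrra and Esrrg, did not pass the test. The count of regulators that rose was above the background share. All 3 subunits that the naming rule missed were higher: 2010107E04Rik, Usmg5 and Ndufab1, by 0.96, 0.57 and 0.54 (edgeR adjusted p = 1.55e-04, 8.52e-04 and 3.68e-04).

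Factors that assemble the complexes stayed near the background. Of 14 complex I assembly factors in the table, 4 were higher and 1 was lower (median log2FC 0.11). Ndufaf4 had 30.9, 33.02, 31.8 and 37.05 CPM in Nampt-cKO skin, against 13.96, 14.9, 16.5 and 11.2 CPM in control skin (log2FC 1.23, SE 0.13, edgeR adjusted p = 1.17e-04), whereas Acad9, an acyl-CoA dehydrogenase that also serves assembly, had 123, 107, 95.8 and 95.6 CPM in Nampt-cKO skin, against 162, 178, 147 and 160.0 CPM in control skin (log2FC −0.62, SE 0.10, edgeR adjusted p = 9.05e-04). The groups were apart for both genes. Ecsit and Ndufaf2 were higher by 0.50 and 0.70 (edgeR adjusted p = 0.00382 and 0.00506). Of 30 factors for complexes II to V, 7 were higher and 3 were lower (median 0.10). Sco2, a copper chaperone of complex IV, and Cox10, which makes its heme A, were higher by 1.65 and 0.85 (edgeR adjusted p = 4.07e-04 and 4.40e-04), as was Coa7 by 0.80 (edgeR adjusted p = 0.00332). Surf1, another complex IV factor, was lower (log2FC −0.54, edgeR adjusted p = 0.00714). Coenzyme Q carries electrons from complexes I and II to complex III. Of 13 genes of coenzyme Q synthesis, 4 were higher and 2 were lower (median −0.04). Pdss1, which builds the isoprenoid tail, had 30.2, 17.04, 18.4 and 29.4 CPM in Nampt-cKO skin, against 7.96, 8.37, 5.04 and 7.31 CPM in control skin (log2FC 1.73, SE 0.24, edgeR adjusted p = 4.27e-04), while Coq2, which joins tail and ring, had 57.3, 49.6, 41.96 and 40.04 CPM in Nampt-cKO skin, against 75.3, 73.5, 78.7 and 73.7 CPM in control skin (log2FC −0.67, SE 0.11, edgeR adjusted p = 0.00125). Coq5 and Coq7, enzymes of the ring, were higher by 0.61 and 0.65 (edgeR adjusted p = 0.00246 and 0.00390).

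Intron reads, which come in part from unspliced transcripts, gave a sparser readout that the exon counts do not use. Of the 80 members with enough intron reads, 16 were higher and 4 were lower (edgeR, median log2FC 0.27), against 14.3% higher and 14.0% lower of 15817 genes tested (median 0.02). All 16 that were higher were also higher in exon reads, while 54 members that were higher in exon reads could be tested here. Atp5s and Ndufv3 were lower in both (−1.62 and −0.84 in intron reads, edgeR adjusted p = 0.0129 and 0.0382). Cox6b2, which did not pass in exon reads, was lower in introns (−0.91, edgeR adjusted p = 0.0437). Uqcrq had 42.97, 60.3, 35.7 and 62.9 intron CPM in the Nampt-cKO libraries, against 11.99, 17.7, 18.2 and 29.5 intron CPM in the controls (log2FC 1.38, SE 0.29, edgeR adjusted p = 0.00352), from 1246 reads over all libraries. For Uqcrq the lowest Nampt-cKO library stood above the highest control here too. Atp5b and Atp5g3 were higher by 0.52 and 0.62 (edgeR adjusted p = 0.0182 and 0.0147). Uqcrc1 moved the other way in introns, at 162, 111, 131 and 118 intron CPM in the Nampt-cKO libraries, against 184, 192, 175 and 198 intron CPM in the controls (log2FC −0.52, SE 0.16, edgeR adjusted p = 0.0259). Ndufc2, the member with the largest rise in exon reads, was at 0.72 in intron reads (edgeR adjusted p = 0.0910) and did not pass. Intron counts can hold reads of overlapping genes, since the use of strand is not known.

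Per length, the member with the highest level was the same in both groups for complexes III and IV and ATP synthase. By mean RPKM, the highest members were Atp5b (432 in Nampt-cKO skin and 278 in control skin), Cox4i1 (312 in Nampt-cKO skin and 277 in control skin) and Uqcrh (195 in Nampt-cKO skin and 173 in control skin), each first in its complex. Among members named for complex I the first place differed, with Ndufa4 at 148 RPKM in Nampt-cKO skin, against 97.4 in control skin, and Ndufb9, first in control skin, at 114 RPKM in Nampt-cKO skin, against 111 in control skin. Ndufa4 is now known as a subunit of complex IV, and without it Ndufb9 was first in both groups. The median member of complex I was at 50.8 RPKM in Nampt-cKO skin and 43.6 RPKM in control skin, and that of ATP synthase was at 114 RPKM in Nampt-cKO skin and 105 RPKM in control skin.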

How the data were processed

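RNA-seq was performed on poly-A selected RNA from whole skin, and 1 table held all 8 libraries. The authors deposited raw counts of reads per gene (exon, unique exon, gene and intron reads) and RPKM, which the values show to be exon reads per kilobase, scaled to a library total that includes mitochondrial reads. The build is GRCm38/mm10 per the submitters' processing notes. The aligner, counter, annotation and use of strand were not given in the sources used here. The deposited columns of fold changes and p-values, and 72 other columns of values per library, were not used.

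Total exon read counts were filtered with filterByExpr, scaled with TMM and tested in edgeR 4.0.16 (R 4.3.3) with the quasi-likelihood test and a design of condition alone, and p-values of the 17286 genes tested were adjusted together by Benjamini-Hochberg. The procedure was tested on simulated counts, with 49 or 50 genes changed at each size, fewer than were called in these data. True log2 changes of −1 and 1 were called for 36.7% and 38% of genes, and those of −0.5 and 0.5 for 2.04% and 4%. Of the calls 2.44% were false. The changed genes were drawn at random from all genes fitted, so these shares do not give the power for the members. Some members passed at smaller changes, such as Sdha (log2FC 0.23, SE 0.07). Missing the threshold is by itself not evidence of no change, and the estimate with its SE has to be read beside it. The counts differed between replicate libraries of a group by more than sampling noise, so each library was used as 1 sample. Fold changes are relative to the scaling, under which the median gene was at −0.01. DESeq2 1.42.0 and limma 3.58.1 were among the alternatives, which also covered scaling, filter, read type, RPKM pseudocount (0.1 and 1), a replicate block, a skeletal muscle covariate, removal of mitochondrial genes and removal of each library.

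Members, gene lists and motif letters were chosen with earlier results of these data known. Named members were those past the test with the smallest p (up to 6 a complex) or largest change (up to 3 a complex), core subunits, tissue isoforms, the highest by RPKM and members not tested. Other members, such as Ndufs7, Ndufa12, Ndufb4, Ndufs5, Cox7c and the remaining subunits of ATP synthase, were named after their values were seen. So were Coq5, Coq7, the regulators that did not pass the test and the intron results. The values of 1 member are not reported here, and the plot of changes omits it. Gene reads for the mitochondrial genome and intron reads were taken up after seeing the data. Table starts count from 0 and were raised by 1. Promoters came from RefSeq (GRCm38.p6). Figures were drawn in Python 3.11.15 with Matplotlib 3.10.9.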

Additional observations from a re-analysis of the deposited data

Results flagged for a closer look

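Among 124 groups of 4 libraries (the named members and the 13 mitochondrial mRNAs, in each condition), 11 had a library whose gap to its nearest neighbour, divided by the whole range of the group, was above Dixon's critical value for groups of this size. Chance gives this in about 1 of 20 groups. In Nampt-cKO skin the highest library stood apart for Atp5s (5.98 CPM), Ndufs1 (93.8 CPM), Sdhb (79.0 CPM), Sdhc (113 CPM) and Cyc1 (155 CPM), and the lowest for Cox6c (139 CPM). The muscle-type isoforms Cox7a1 (1.32 CPM) and Cox8b (9.08 CPM) each had a highest Nampt-cKO library far from the other 3, and for both genes it was the library labelled Nampt-cKO replicate 3, which also had the highest level of muscle markers. In control skin the lowest library stood apart for Uqcrc2 (94.7 CPM), and the highest for Atp5a1 (566 CPM) and for COX2 of the mitochondrial genome (3604 CPM of gene reads). The groups remained apart for Atp5s, Ndufs1, Sdhb, Cyc1, Cox6c, Uqcrc2, Atp5a1 and COX2 with these libraries included, and overlapped for Sdhc, Cox7a1 and Cox8b.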

How the results depend on the processing

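Counts of members past the test stayed within 1.5 times their value under all 22 alternatives. All members together had 58 calls and ran from 47 to 59 (47 to 58 on leaving out single libraries), complex I from 17 to 23, complex II from 2 to 3, complex III from 8 to 9, complex IV from 9 to 12 and ATP synthase from 10 to 13, while the mitochondrial mRNAs had 13 calls under each of 17 alternatives chosen after seeing the data. For the 49 named subunits, 1017 of 1078 values kept direction and side of the threshold. Of the others, 40 kept the sign and no longer passed the test, in Ndufa6, Ndufa12, Sdha, Uqcrh, Cox4i1 and Cox8a, 3 kept the sign and newly passed it, in Ndufa4l2, Cox6a2 and Cox7a1, and 18 changed sign. Among the last, Cox7c in unique exon reads also lost its call, and Cox8b without Nampt-cKO replicate 3 newly passed the test.

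The cause of the sign changes was not tested. Log2FC of Cox8b was −0.0293 with upper-quartile factors, −0.9053 with limma-voom, −0.5055 with the muscle covariate, −0.9549 and −0.6681 on log2(RPKM + 0.1) and log2(RPKM + 1), and −1.7684 to 0.3903 on leaving out single libraries. Sdhc was at 0.0023 with the stricter filter and ran from −0.0807 to 0.015, and Cox6a2 from −0.383 to 1.1292, on leaving out single libraries. Atp5g2 was at −0.0339 and −0.0337 with RPKM pseudocounts of 0.1 and 1, Cox6b2 at −0.3511 in total gene reads and Cox7c at −0.0283 in unique exon reads.

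Correlations of deviations from the group means were −0.054 to 0.179 between libraries of the same replicate number and −0.23 to 0.14 between those of different numbers, so the numbers were not taken to pair the samples. With a replicate block, 49 members were higher and 3 lower, 52 in all, Ndufa6, Ndufa12, Sdha and Cox4i1 no longer passed the test, and Cox8b was at −0.8617. Depth limits the precision of Cox7a1, at 0.204 to 2.82 CPM, and of intron reads.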
